A study of Mus musculus with 6 samples.

Results

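Endothelial cell genes, 40 in all of the 34821 gene names on the array, were followed across 6 arrays with a sample and a reference channel. They were chosen by name, as genes of blood and lymphatic vessel lining that read lower on the conditional knockout (KO) macrophage arrays than on the wild type (WT) ones, so the KO and WT values of the macrophages chose the members and are given here as a description only. All 40 were on the array, with 53 probes, and 11 had more than 1 probe. By role they were 12 junction and surface adhesion genes, 11 receptors, 7 transcription factors, 5 genes of secreted proteins, and 5 of enzymes, transporters and intracellular proteins.

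The macrophage samples were F4/80+ cells from mammary glands of virgin female mice, 2 arrays from mice with a conditional KO of Dll1 (C57/B6:cKO-Dll1) and 2 from wild type littermates (C57/B6). The other samples were CD24+ CD29-high mammary cells, a basal fraction holding the mammary stem cells, from virgin female Dll1-mCherry reporter mice on C57/B6, sorted as mCherry-positive (Dll1-high, 1 array) or mCherry-negative (Dll1-low, 1 array). The labels name no treatment. They do not say which Cre or promoter deletes Dll1, in which cells, or whether animals were pooled or the replicates came from separate animals. Every sample was labelled with Cy5 and hybridised against Cy3-labelled RNA pooled from 11 mouse cell lines (universal mouse reference), and dyes were not swapped, so every value below is a log2 ratio of sample over reference RNA unless stated otherwise.

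Endothelial cells line blood and lymphatic vessels. They hold together through VE-cadherin and claudin junctions, depend on the VEGF and angiopoietin receptors, and keep their identity through transcription factors of the ETS family such as ERG and of the SOX family. Macrophages in the mammary gland lie close to vessels and ducts, and some of the members, such as Lyl1 and Tal1, are also known as regulators in blood cells.

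Promoters of members are shown because many endothelial genes are known targets of ETS factors. RefSeq promoters of 300 bases (250 before to 50 after the start, GRCm38.p6, 5′ to 3′ on the gene's strand) were at hand for 23 of the 40 members, 29 promoters in all. The ETS core searched was AGGAAG, on either strand (reading CTTCCT on the other), and capitals mark it. It lay in 15 of the 29 promoters (51.7%), against 35.4% of 32851 promoters of the same length. A core of SOX sites, ACAAT on either strand, lay in 34.5% against 31%. A GATA site, AGATAA on either strand, lay in 10.3% against 11.2%. A match is only a description of the letters. The examples are the secreted factor Egfl7 with 3 matches (the first of its 3 listed starts, chr2:26580833-26581132, plus strand), the intracellular Ushbp1 with 2 (chr8:71395752-71396051, minus strand), the VEGF receptor Flt1 with 2 (chr5:147725962-147726261, minus strand), the guidance receptor Robo4 with 1 (chr9:37401722-37402021, plus strand) and the VEGF receptor Kdr with none in this window (chr5:75978406-75978705, minus strand).
Egfl7: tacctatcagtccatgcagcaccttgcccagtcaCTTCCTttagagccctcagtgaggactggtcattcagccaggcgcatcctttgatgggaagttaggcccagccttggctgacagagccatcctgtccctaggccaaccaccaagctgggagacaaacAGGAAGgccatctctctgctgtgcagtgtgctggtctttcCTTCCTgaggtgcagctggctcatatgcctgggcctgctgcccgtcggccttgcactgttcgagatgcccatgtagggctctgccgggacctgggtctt
Ushbp1: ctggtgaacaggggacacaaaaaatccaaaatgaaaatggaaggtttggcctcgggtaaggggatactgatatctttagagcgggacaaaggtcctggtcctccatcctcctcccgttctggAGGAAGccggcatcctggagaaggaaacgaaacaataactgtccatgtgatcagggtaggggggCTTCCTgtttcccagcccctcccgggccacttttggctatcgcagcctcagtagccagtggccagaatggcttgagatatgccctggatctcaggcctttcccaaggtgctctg
Flt1: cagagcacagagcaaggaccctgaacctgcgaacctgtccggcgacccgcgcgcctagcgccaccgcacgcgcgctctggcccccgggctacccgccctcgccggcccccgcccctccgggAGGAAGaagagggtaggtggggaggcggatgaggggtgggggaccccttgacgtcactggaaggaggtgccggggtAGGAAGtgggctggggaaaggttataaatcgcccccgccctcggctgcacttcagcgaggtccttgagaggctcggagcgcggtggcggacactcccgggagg
Robo4: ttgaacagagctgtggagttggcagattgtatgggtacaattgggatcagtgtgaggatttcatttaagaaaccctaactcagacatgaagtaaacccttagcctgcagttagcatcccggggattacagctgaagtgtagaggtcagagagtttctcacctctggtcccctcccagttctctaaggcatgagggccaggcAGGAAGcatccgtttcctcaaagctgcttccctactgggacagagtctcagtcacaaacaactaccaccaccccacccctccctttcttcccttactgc
Kdr: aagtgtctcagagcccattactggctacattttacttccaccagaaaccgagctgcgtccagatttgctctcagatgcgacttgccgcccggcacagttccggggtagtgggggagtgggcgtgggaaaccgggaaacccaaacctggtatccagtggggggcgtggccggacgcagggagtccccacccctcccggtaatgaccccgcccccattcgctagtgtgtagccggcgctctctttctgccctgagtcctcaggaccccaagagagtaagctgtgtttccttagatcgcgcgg
The members with these promoters differed by -1.10 (Egfl7), -1.35 (Ushbp1), -0.69 (Flt1), -0.79 (Robo4) and -0.85 (Kdr), KO minus WT on the log2 scale, so the member without a match lay among those with 1 to 3. The other members without a match in any listed promoter ran from -0.78 (Mmrn1) to 0.38 (Lyl1), and those with a match from -1.35 (Ushbp1) to 0.27 (Sele).

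The arrays differed in more than genotype. Dll1 itself read 0.80 and 2.25 on the KO arrays and 0.78 and 3.24 on the WT arrays (replicates 1 and 2, a probe spotted 10 times), a KO minus WT of -0.49 (SE 1.03), and it is not known whether this probe lies in the deleted part. KO 2 and WT 2, in the second row of the slide, differed by at least 2-fold at 219 of 24703 genes (r over genes 0.962), while WT 1 and WT 2 did so at 8163 (r 0.423). Slide column went with genotype: the KO arrays shared a column and the WT arrays another, so genotype and column cannot be told apart. Emr1, which encodes F4/80, read 4.15 and 4.56 on the KO arrays, 1.85 and 3.99 on the WT arrays, against -2.56 (Dll1-high) and -2.46 (Dll1-low) on the CD24+ CD29-high arrays. Across 24703 genes 0.00% passed an adjusted p of 0.05 in limma's test of KO against WT, and 0.125% (31 genes) had an unadjusted p below 0.05. The count of adjusted calls was 0 also with the replicate block and with limma's trend and robust options, where 142 and 61 genes had an unadjusted p below 0.05.

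Endothelial genes were readable on the F4/80+ arrays, and most had lower ratios on the KO than on the WT arrays. Of the 40 members, 38 were measured there, which took a Cy5 signal that the scanner software called well above background on 2 or more of the 4 macrophage arrays. The exceptions were Erg, an ETS factor of endothelial identity, and Calcrl, the receptor for adrenomedullin. Of the 38, 35 had a lower mean ratio in KO (59.9% of all genes tested did), 29 were lower in both pairs of equal replicate number (30.2% of all), 17 had both KO arrays below both WT arrays (13.5% of all), and 10 were at least 2-fold lower (5.22% of all), with none at least 2-fold higher. The members were picked for this contrast, so the shares serve for scale only. The pattern did not hold for every member measured: Sele, Flt4 and Lyl1 had a higher mean in KO. The median difference was -0.69 on the log2 scale, against -0.10 over all genes tested. On each array the median ratio of the members was 1.23 (KO 1), 2.13 (KO 2), 1.92 (WT 1) and 2.86 (WT 2), so the KO 2 median lay above the WT 1 median and the genotypes overlapped. In such bulk samples, fewer cells that express these genes and less RNA per cell cannot be told apart. Which cells of the sort gave the signal was not tested.

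**Figure D1:**
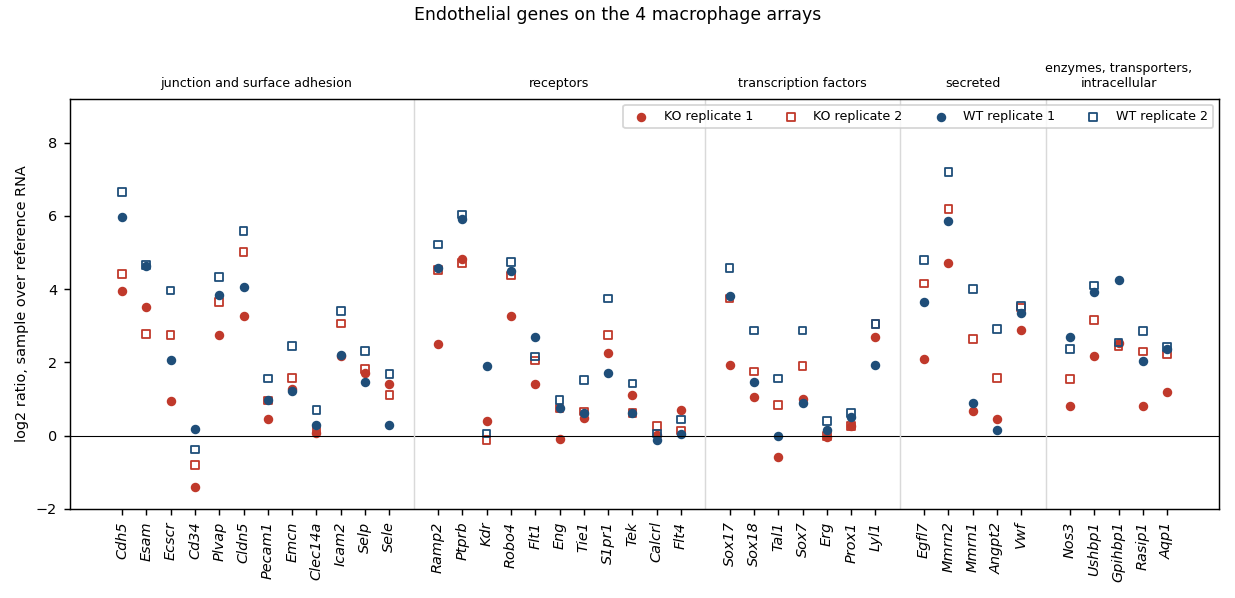
Log2 ratio of sample over reference RNA (y axis) for each of the 40 members (x axis, grouped by role), with 1 point per macrophage array, red for KO and blue for WT, filled circles for replicate 1 and open squares for replicate 2. Cdh5, at 3.96 and 4.42 in KO and 5.96 and 6.66 in WT, has the widest gap between genotypes, while replicate 2 lies above replicate 1 for most members.

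Junction and surface adhesion genes held the 2 largest differences of all members. Cdh5, VE-cadherin of the adherens junctions (probe at mm9 chr8:106668159-106668218), read 3.96 and 4.42 on the KO arrays and 5.96 and 6.66 on the WT arrays. Esam, an adhesion molecule of endothelial tight junctions, read 3.52 and 2.77 in KO and 4.62 and 4.66 in WT. Neither gene's groups overlapped, and KO minus WT was -2.12 (SE 0.42) for Cdh5 and -1.49 (SE 0.40) for Esam. Both depended on the processing: with the scanner software's processed signals Cdh5 differed by -0.55 with KO 2 (8.96) above WT 2 (8.26), and Esam turned to 0.14. Their reference signal was well above background on 3 of the 4 macrophage arrays. The raw Cy3 median signal of Esam was 89, 52.5, 106 and 221 on KO 1, KO 2, WT 1 and WT 2. That of Cdh5 was 73, 42, 60.5 and 73 on KO 1, KO 2, WT 1 and WT 2, and its raw Cy5 median signal was 1981, 1009, 1838 and 6043.

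Other surface genes differed less, or overlapped. Ecscr, a cell surface regulator of endothelial migration, read 0.94 and 2.74 in KO and 2.06 and 3.96 in WT. Its groups overlapped because replicate 2 was high in both genotypes, and the difference was -1.17 (SE 0.96). Plvap, the protein of fenestral diaphragms, read 2.74 and 3.64 in KO and 3.83 and 4.33 in WT. Cd34, a sialomucin of capillaries and progenitor cells, read -1.40 and -0.80 in KO and 0.18 and -0.38 in WT. In both genes the KO arrays lay below the WT arrays, with differences of -0.89 (SE 0.47) and -1.0 (SE 0.42), although a second Cd34 probe, well above background on 1 macrophage array, gave 0.18. With median centring in place of loess Plvap came to 0 and Cd34 turned to 0.19. Cldn5, the tight junction claudin of endothelium, read 3.26 and 5.01 in KO and 4.06 and 5.58 in WT, which overlapped, and it differed by -0.69 (SE 0.86). Sele, E-selectin, which slows leukocytes on inflamed endothelium, was the only junction or adhesion gene with a higher mean in KO, at 1.42 and 1.1 in KO against 0.30 and 1.68 in WT. Its groups overlapped fully. The remaining 5, Pecam1, Icam2, Emcn, Selp and Clec14a, differed by -0.57, -0.19, -0.41, -0.13 and -0.38. Of these, Pecam1 (CD31) and Clec14a had both KO arrays below both WT arrays. Over the 12 genes 11 were lower in KO (59.9% of all genes), 9 in both pairs (30.2%) and 6 without overlap (13.5%). The median was -0.63. It was -0.29 without KO replicate 1, -0.20 without WT replicate 2 and -0.04 with median centring.

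Receptors showed the same direction at most members. Ptprb, the receptor phosphatase that restrains the angiopoietin receptor Tek, read 4.82 and 4.71 on the KO arrays and 5.92 and 6.04 on the WT arrays. The genotypes were far apart relative to the replicates, with a difference of -1.21 (SE 0.31). Of 2 further probes, 1 gave -0.54 and another, well above background on 1 macrophage array, gave -0.31. With the scanner software's processed signals the first probe's difference was -0.55, with KO 2 (7.15) above WT 1 (7.10). Ramp2, the partner of Calcrl, read 2.50 and 4.53 in KO and 4.58 and 5.22 in WT. KO 2 lay just below WT 1 there, and the difference was -1.39 (SE 0.80). Robo4 read 3.27 and 4.37 in KO and 4.49 and 4.74 in WT, again without overlap (-0.79, SE 0.50). Flt1, VEGF receptor 1, read 1.42 and 2.05 in KO and 2.68 and 2.16 in WT, without overlap (-0.69, SE 0.42). It turned to 0.46 with median centring in place of loess. Of its other probes, 1 gave -0.59 and another, well above background on 2 macrophage arrays, gave 0.52.

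Kdr, VEGF receptor 2, was read by a pair of probes that disagreed in level. The brighter probe gave 0.39 and -0.12 in KO and 1.90 and 0.06 in WT, which overlapped, with a difference of -0.85 (SE 0.73). The other, spotted 10 times with an SD over spots of 0.15 to 0.25 on the macrophage arrays, gave 3.14 and 4.79 in KO and 4.59 and 5.56 in WT, which also overlapped, with a difference of -1.11. Flt4, VEGF receptor 3 of lymphatic endothelium, was the receptor with a higher mean in KO, at 0.71 and 0.14 against 0.03 and 0.44, and was not well above background on KO 2 and WT 1. Eng, a TGF-beta co-receptor, read -0.08 and 0.74 in KO and 0.75 and 0.98 in WT, which met without overlap. Its difference of -0.53 turned to 0.10 with median centring in place of loess. Tek, Tie1 and S1pr1 differed by -0.17, -0.50 and -0.22 with overlapping groups, and Tek and S1pr1 were higher in KO in the first pair. Over the 10 receptors measured, 9 were lower in KO (59.9% of all genes), 7 in both pairs (30.2%) and 5 without overlap (13.5%). The median was -0.61.

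Transcription factors varied among themselves. Sox17, a SOX factor of arterial endothelium, read 1.93 and 3.74 on the KO arrays and 3.80 and 4.57 on the WT arrays. The groups met without overlap, and the difference was -1.35 (SE 0.75). Its second probe, with 1.38 and 2.60 in KO and 1.38 and 2.90 in WT, differed by -0.15, so the 2 probes disagree, and the reference signal of the first was not well above background on any macrophage array. Sox18, the SOX factor of lymphatic and vascular development, read 1.05 and 1.75 in KO and 1.46 and 2.87 in WT, which overlapped (-0.77, SE 0.62), and turned to 0.94 with the scanner software's processed signals. Sox7 read 1.01 and 1.90 in KO and 0.90 and 2.87 in WT, also overlapping (-0.43, SE 0.81). Tal1, which specifies blood and endothelial precursors, read -0.58 and 0.84 in KO and -0.01 and 1.56 in WT. Its groups overlapped as well (-0.64, SE 0.79). Prox1, the factor of lymphatic endothelial fate, was well above background on both WT arrays (0.50 and 0.62) and on neither KO array (0.27 and 0.26). Set against the lowest signal readable on those arrays, WT was at least 1.22-fold higher, in Cy5 signal after loess and quantile normalization, which stays exposed to dye bias.

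Lyl1 went the other way. This factor of blood cell and endothelial lineages read 2.69 and 3.05 on the KO arrays and 1.94 and 3.04 on the WT arrays. It was the only measured member above WT in both pairs (18.7% of all genes tested were), by 0.74 and 0.01, and its groups overlapped (0.38, SE 0.50). Erg, the factor absent from the count, read between -0.03 and 0.40 on the macrophage arrays and was not well above background on any of the 6 arrays with either of its probes. Over the 6 factors measured, 5 were lower in KO (59.9% of all genes), 4 in both pairs (30.2%) and 2 without overlap (13.5%). The median was -0.53.

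Secreted proteins of the endothelium all had a lower mean in KO (59.9% of all genes did), and every group overlapped. Mmrn2, a matrix glycoprotein that binds Clec14a, had the highest mean ratio of any member over the macrophage arrays (5.99), with 4.72 and 6.18 in KO and 5.85 and 7.20 in WT. Egfl7, a vessel matrix factor, read 2.09 and 4.15 in KO and 3.64 and 4.80 in WT. In both genes each KO array was below the WT array of its own number but KO 2 was above WT 1, and the differences were -1.07 (SE 0.75) and -1.10 (SE 0.87). Mmrn2 turned to 0.05 with the scanner software's processed signals, where Egfl7 read -1.02, and Egfl7 turned to 0.03 with median centring in place of loess. Mmrn1, a lymphatic and platelet protein, read 0.68 and 2.64 in KO and 0.88 and 4.00 in WT (-0.78, SE 1.31). Angpt2, the angiopoietin that destabilises vessels, read 0.44 and 1.57 in KO and 0.15 and 2.91 in WT (-0.53, SE 1.08). For these genes the replicate number separated the arrays more than the genotype did. Vwf, the clotting factor stored in endothelium and platelets, read 2.87 and 3.50 in KO and 3.35 and 3.54 in WT, and differed least (-0.26, SE 0.38). The median of the 5 genes was -0.78, and leaving out KO 1 gave 0.04 and leaving out WT 2 gave -0.17.

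Enzymes, transporters and intracellular proteins were lower in KO at all 5 members (59.9% of all genes) and in both pairs (30.2%). Of the 5, 4 were without overlap (13.5% of all genes), and the median was -0.91. Nos3, the endothelial nitric oxide synthase, read 0.81 and 1.54 on the KO arrays and 2.68 and 2.37 on the WT arrays. Ushbp1, a protein known by its binding to harmonin, read 2.16 and 3.16 in KO and 3.92 and 4.10 in WT. Both genes differed by -1.35, with an SE of 0.41 and 0.47, and kept differences of -1.12 and -1.17 with the scanner software's processed signals, without overlap there too. Their other probes did not show this: the second Nos3 probe, spotted 10 times, gave -0.14 and the second Ushbp1 probe -0.15. Gpihbp1, which carries lipoprotein lipase across capillary endothelium, read 2.52 and 2.43 in KO and 4.24 and 2.54 in WT. The difference of -0.91 (SE 0.66) came mostly from WT 1, with -0.11 between KO 2 and WT 2. Aqp1, the water channel, read 1.19 and 2.21 in KO and 2.36 and 2.42 in WT, without overlap (-0.69, SE 0.47). Rasip1, a RAS effector needed for vessel lumens, read 0.80 and 2.30 in KO and 2.04 and 2.86 in WT, with overlap (-0.90, SE 0.66).

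The pairs of arrays that share a slide row differed in how far the members stood from other genes. Between KO 2 and WT 2, the pair most alike over all genes, 37 of 38 members were lower in KO (52.6% of all genes were), and 8 were at least 2-fold lower (0.632% of all, 156 genes), with none at least 2-fold higher. These 8 were Cdh5 (-2.24), Esam (-1.89), Mmrn1 (-1.36), Angpt2 (-1.34), Ptprb (-1.33), Ecscr (-1.22), Sox18 (-1.12) and Mmrn2 (-1.02). With the scanner software's processed signals 32 members were lower in that pair (50.3% of all genes), 6 at least 2-fold lower (4.54% of all) and 1 at least 2-fold higher. Among the 26 members with a readable reference the count at least 2-fold lower was 3, and 1 with the processed signals. Among the 20452 genes with such a reference it was 79, and 561 with the processed signals. With the Cy5 channel alone 36 members were lower (44.4% of all genes). Between KO 1 and WT 1, 29 members were lower (58.9% of all), 18 at least 2-fold (18.1% of all) and Sele alone at least 2-fold higher (8.70% of all). With median centring in place of loess only 7 members were lower in the first pair, where 19.5% of all genes were, while 36 were in the second (47.4% of all). Over both pairs 23 of the 38 were lower with that setting, with a median of -0.03 against 0.46 over all genes. The median over members was -0.82 in the first pair and -0.67 in the second, against -0.16 and -0.01 over all genes.

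**Figure D2:**
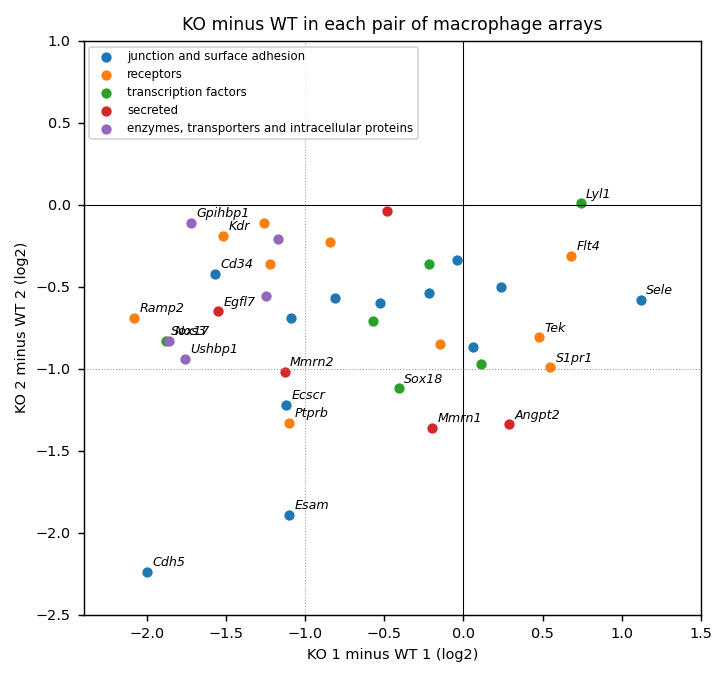
KO minus WT of the log2 ratio between the replicate 1 arrays (x axis) and between the replicate 2 arrays (y axis) for the 38 members measured in macrophages, coloured by role, with dotted lines at a 2-fold lower ratio. Of the 38 points 29 lie below 0 on both axes, Lyl1 is the only one above 0 on both (0.74 and 0.01), and Cdh5 is at -2.0 and -2.24.

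A ratio needs a readable reference, so the members were split by the Cy3 signal. It was well above background on all 4 macrophage arrays for 26 members. Of these, 25 were lower in KO, 21 in both pairs and 13 without overlap, with a median of -0.69. Of the 20452 genes with such a reference signal, 12446 were lower, 6312 in both pairs and 2900 without overlap. With the scanner software's processed signals 23 of the 26 were lower, with a median of -0.58, and 5 were without overlap, as were 2331 of the 20452. For the other 12 members, among them Cdh5, Esam, Mmrn2, Sox17 and Sox18, 10 were lower with a median of -0.63, but with the processed signals only 6 were, with a median of -0.02. In all, 29 of the 38 stayed lower in KO with the processed signals, against 52.5% of all genes, and 6 of the 38 had both KO arrays below both WT arrays, against 10.9%. The members that turned were Sox18 (0.94), Emcn (0.76), Vwf (0.29), Esam (0.14), Icam2 (0.06) and Mmrn2 (0.05), and Gpihbp1, Angpt2 and Mmrn1 came to -0.42, -0.10 and -0.09. The size of a member's difference moved by a median of 0.19 between these settings in the first set and 1.09 in the second. In the second set Cdh5, Esam and Mmrn2 had a readable reference on 3 of the 4 arrays.

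**Figure D3:**
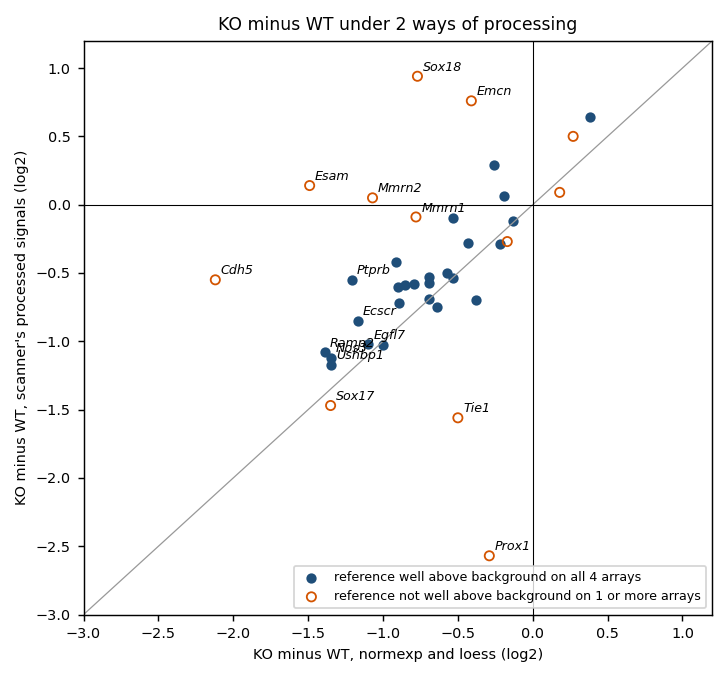
KO minus WT of the log2 ratio with normexp background correction and loess (x axis) and with the scanner software's processed signals (y axis) for the 38 members, filled where the reference RNA was well above background on all 4 macrophage arrays and open where it was not, with the line of equal values. The filled points lie within 0.66 of that line, and open points such as Cdh5 (-2.12 and -0.55), Esam (-1.49 and 0.14) and Prox1 (-0.29 and -2.57) lie up to 2.28 from it.

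Other genes of endothelium also had a negative median, nearer to that of all genes than the members' median. A further list of 54 endothelial genes, none of them members, was also chosen with earlier results of these data known. It too is a description only, and 50 of its genes were measured in macrophages. Of these, 37 were lower in KO, 22 in both pairs, 9 without overlap and 6 at least 2-fold lower, with a median of -0.33. Over all genes tested the shares were 59.9%, 30.2%, 13.5% and 5.22% in that order. None passed limma's adjusted p of 0.05 and 1 had an unadjusted p below 0.05. That median turned to 0.31 with median centring (all genes then had a median of 0.46), and to 0.04 without WT replicate 2. Of the 4 with the highest mean ratio in macrophages that were measured on every array, Cd93 read 3.80 and 4.63 in KO and 4.30 and 4.99 in WT, and Gpr116 3.51 and 4.55 against 4.56 and 5.04. Rbp7 read 2.51 and 4.48 in KO against 5.82 and 4.70 in WT, and Stab2 1.62 and 4.70 against 2.45 and 5.21. Gpr116 and Rbp7 did not overlap, and Cd93 and Stab2 did. With the scanner software's processed signals Gpr116 turned to 0.39 with overlap, while Rbp7 gave -0.82 without overlap. The reference signal of Gpr116 and of Rbp7 was well above background on 3 of the 4 macrophage arrays. The 6 lymphatic genes measured were all lower in KO, with a median of -1.25. That median was -0.47 without KO replicate 1, -0.58 without WT replicate 2 and -0.26 with median centring. Lyve1, a hyaluronan receptor of lymphatic endothelium and some macrophages, read 0.11 and 6.70 in KO and 2.75 and 7.20 in WT. It was not well above background on KO 1, and its groups overlapped (SE of the difference 2.77).

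Markers of other cells the sort could hold moved with the arrays too. For scale, 59.9% of all genes tested were lower in KO, with a median of -0.10. Of 9 pericyte genes measured 3 were lower in KO (median 0.04), with a median ratio of 0.25 and 0.35 on the KO arrays and 0.49 and 0.60 on the WT arrays. Of 11 platelet and megakaryocyte genes 8 were lower (median -0.20), with a median ratio of -0.06 and 0.27 in KO and -0.11 and 0.09 in WT, and the platelet genes Gp9 and Gp6 were not well above background on any macrophage array. No gene of either list was at least 2-fold lower in KO, but only 5.22% of all genes tested were, so lists this short say little there. The 16 macrophage genes measured ran the opposite way, with 12 higher in KO and a median of 0.54, and the list's median ratio was 3.98, 3.73, 2.45 and 3.57 on KO 1, KO 2, WT 1 and WT 2. This list turned to -0.06 without WT replicate 1. Fibroblast genes were high on WT 1, with a median ratio of 0.40 against -1.15, -1.29 and -1.57 on KO 1, KO 2 and WT 2. They differed by a median of -1.60 in the first pair and 0.37 in the second (0.25 without WT replicate 1), while the members had -0.82 and -0.67. Erythroid genes (4 of 4, median -0.33) and adipocyte genes (4 of 4, median -0.31) were lower in KO, and the erythroid median was 0.09 without WT replicate 2. Among them was the adipocyte factor Cfd, at 0.71 and 2.76 in KO and 3.04 and 4.33 in WT, which did not overlap, although its reference signal was well above background on 1 of the 4 arrays and its groups overlapped with the processed signals. Lymphocyte genes were higher in KO at 7 of 8 (median 0.42), with a median ratio of 1.83 and 0.80 in KO and 0.90 and 0.91 in WT. Luminal (6 of 13 lower) and basal (5 of 10 lower) epithelial genes had medians of 0.09 and 0.05. The part of these cells in the members' differences was not tested. Without WT replicate 1, 37 of 38 members were lower in KO and their median was -1.08 (-0.01 over all genes tested). Without WT replicate 2 the members' median was -0.25 (-0.13 over all genes) with 25 lower. Without KO replicate 1 it was -0.28 (-0.09 over all genes) with 28 lower, and without KO replicate 2 -1.10 (-0.12) with 34 lower.

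**Figure D4:**
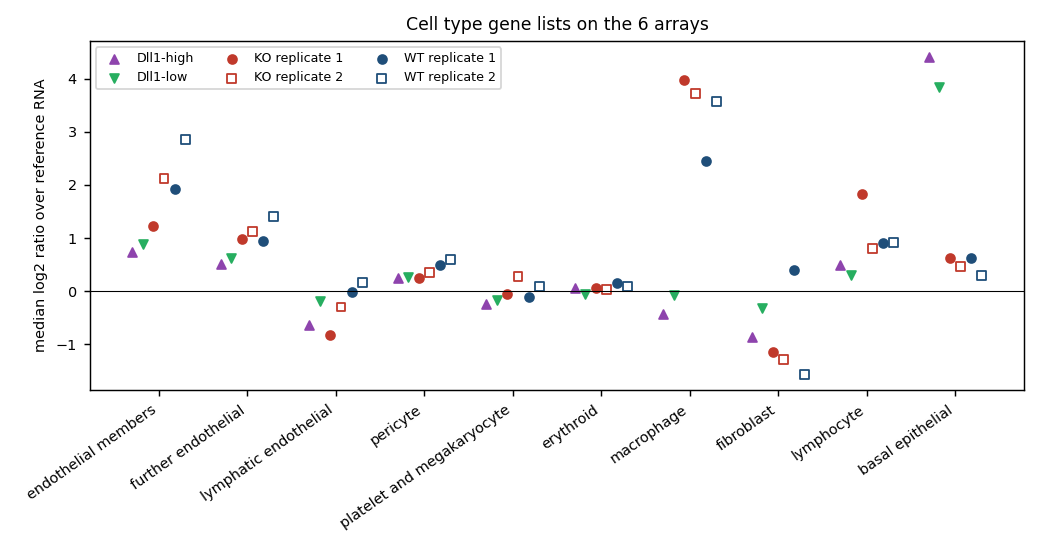
Median log2 ratio of sample over reference RNA (y axis) for the members and 9 marker lists (x axis) on each of the 6 arrays, with the symbols given in the legend. The members' median runs from 0.73 (Dll1-high) to 2.86 (WT 2), the macrophage list is lowest among the macrophage arrays on WT 1 (2.45), and the fibroblast list is highest there (0.40).

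In the CD24+ CD29-high cells the endothelial genes were readable as well, and slightly lower in the Dll1-high than in the Dll1-low cells. With 1 array for each state, no test was possible. Of 39 members measured (all but Erg), 34 had a lower ratio in the Dll1-high cells (56.0% of 32031 genes did), and the median difference was -0.23 against -0.03 over all genes. No member was at least 2-fold apart (0.197% of all genes were), and the spread between the samples of a state is unknown. Repeated spots of 1 probe on these arrays gave such a difference an SD with a median of 0.13 over 399 probes, which covers technical error within an array only. Among members well above background on both arrays Flt1 had the largest difference (-0.62), at -0.25 in the Dll1-high and 0.37 in the Dll1-low cells. Tie1, an angiopoietin receptor partner, was not well above background in the Dll1-high cells and has only a bound: the Dll1-low cells were at least 1.18-fold higher, in Cy5 signal against the lowest readable one. Of the other Flt1 probes, both gave a smaller difference (-0.24 and -0.19).

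By role the median difference, Dll1-high minus Dll1-low, was -0.21 for junction and adhesion genes, -0.18 for receptors, -0.16 for transcription factors, -0.26 for secreted proteins and -0.29 for the enzymes and other proteins. Egfl7, S1pr1, Emcn and Angpt2 differed by -0.47, -0.47, -0.45 and -0.45. Cdh5 read 3.0 in the Dll1-high and 3.14 in the Dll1-low cells, Esam 2.94 and 2.97, and Ptprb 3.40 and 3.51, so these junction and receptor genes were nearly level here. The other members at least 2-fold lower in KO macrophages varied here. Egfl7 differed by -0.47, Ramp2 by -0.42, Sox17 and Ushbp1 by -0.31 each, Mmrn2 by -0.26 and Nos3 by -0.23, while Ecscr went the other way. Ecscr (0.28), Flt4 (0.17), Vwf (0.14), Kdr (0.08) and Selp (0.04) were the members with a higher ratio in the Dll1-high cells. The second Kdr probe, spotted 10 times, had 1.57 in the Dll1-high and 2.08 in the Dll1-low cells, the opposite direction. Of the 54 further endothelial genes 41 had a lower ratio in Dll1-high than in Dll1-low cells (median -0.20), as had 11 of 12 fibroblast genes (median -0.57) and 7 of 7 lymphatic genes (median -0.32). Over all genes measured 56.0% had a lower ratio there, with a median of -0.03.

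**Figure D5:**
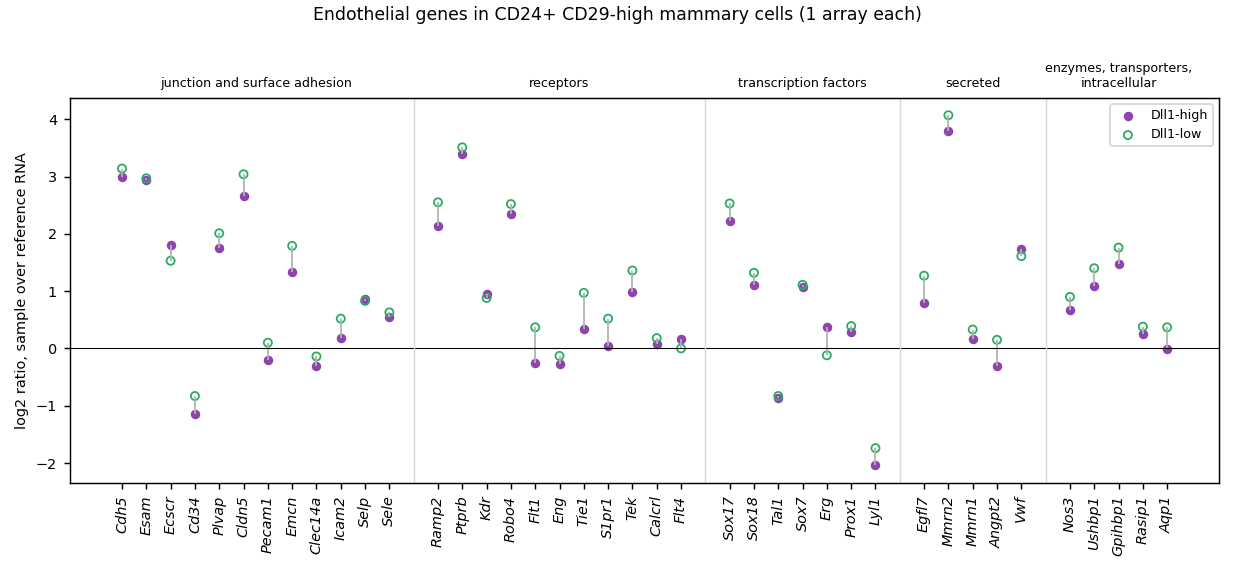
Log2 ratio of sample over reference RNA (y axis) for each of the 40 members (x axis, grouped by role as on the plot of the macrophage arrays) in the Dll1-high (filled) and Dll1-low (open) CD24+ CD29-high cells, 1 array each, joined by a line. Most open points lie above the filled ones, by 0.62 for Flt1 and 0.14 for Cdh5, and Ecscr lies 0.28 the other way.

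Set beside each other, the macrophage arrays read higher than the CD24+ CD29-high arrays for many members, but cell type, slide and version of the scanner software go together here and cannot be told apart. Of the 35 members well above background on all 6 arrays, 22 had all 4 macrophage arrays above both CD24+ CD29-high arrays (62.9%, against 25.4% of 17566 genes). The 13 exceptions were Esam, Emcn, Cd34, Sele, Ecscr, Kdr, Tek, Ramp2, Sox7, Sox17, Sox18, Angpt2 and Nos3. The KO mean lay above the CD24+ CD29-high mean for 31 of the 35 and the WT mean for 34. Of the 17566 genes, the KO mean did so for 9108 and the WT mean for 11213. Lyl1 had the widest gap, with -2.04 (Dll1-high) and -1.74 (Dll1-low) against 1.94 to 3.05 in the macrophages. Across the 35 members the mean ratios of the WT macrophages and of the CD24+ CD29-high cells had a Pearson r of 0.824 and a Spearman rho of 0.798 (0.58 and 0.614 across all 17566 genes). Both values of a gene share the probe and the reference RNA, so this correlation across genes is a description.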

How the data were processed

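Per the file headers, Agilent Feature Extraction made the deposited scanner files, in version 12.0.2.2 (macrophage arrays) or 11.0.1.1 (the other arrays). The submitters' processing notes name version 11.0. Per the file headers, the spot and background signals are unprocessed intensity values, the processed signals are background-subtracted and dye-normalized, the deposited log ratio is log10 of processed Cy5 over Cy3, and detection is a flag. The authors' deposited value table follows that ratio on the log2 scale (slope 1 to 1.01). It was not centred per gene.

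Median spot signals were used, since the macrophage files hold no means. Background was corrected with normexp (offset 50), loess was applied to the log2 ratios of each array, and control spots (3671 of 62976) and outlier spots (415 to 896 per array) were left out (limma 3.58.1 and data.table version 1.17.8 in R 4.3.3). Spots were averaged to 55681 probes, named by the array design's gene names, and each gene took the value of its brightest probe (mean over the 6 arrays). Per the file headers, probe coordinates are on mm9. Any gene counted as measured when its Cy5 was called well above background on 2 of 4 macrophage arrays, or on 1 of the 2 others. KO and WT were fitted with limma over all such genes, with Benjamini-Hochberg adjustment, and the fit was tested on simulated data. Cy5 was well above background at 47.41% to 71.86% of spots on the macrophage arrays and 85.99% and 88.13% on the others. The number of arrays limits the precision, and p-values measure only the spread between these samples.

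The members and lists were chosen with earlier results of these data known. All members are accounted for, with values in full for up to 6 per role, those that differ or overlap most, and of the other lists at most 4 genes, of the highest ratio in macrophages. Alternatives were the processed signals, the authors' table, median centring, offset 10, Cy5 alone, all probes, other detection filters, each array left out, the replicate number as a block and, chosen after seeing the data, a filter on the reference signal.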

Additional observations from a re-analysis of the deposited data

How the results depend on the processing

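The members' median KO minus WT of -0.69 kept its sign under every setting run. It was -0.54 with the scanner software's processed signals, -0.55 with the authors' table, -0.74 with offset 10, -0.68 with Cy5 alone, -0.60 with the mean of all probes and -0.03 with median centring, where the median of all genes was 0.46, and it ranged from -1.10 to -0.25 with 1 array left out. The members' median less that of all genes ran from -0.65 to -0.50 over the processing settings and from -1.07 to -0.12 with 1 array left out. The 17 members with both KO arrays below both WT arrays (13.5% of all genes) became 6 with the processed signals and with the authors' table (10.9%). They became 3 with median centring (2.36%), 11 with Cy5 alone (10.1%), and 5 of 26 with the processed signals and a readable reference. With 1 array left out, 1 array of a genotype is set against 2 of the other, which is met more easily. By that looser measure the counts were 18 to 35 (30.8% to 46.6% of all genes). Of these, the 18 without WT replicate 2 stand beside 46.6% of all genes. Esam turned to 0.14 and Mmrn2 to 0.05 with the processed signals and with the authors' table. With median centring 23 of the 38 members were lower in KO. Those that turned included Icam2 (0.84), Flt1 (0.46), Selp (0.41), Kdr (0.31), S1pr1 (0.28), Cd34 (0.19), Eng (0.10) and Egfl7 (0.03), while Plvap came to 0. The role medians (junction, receptors, transcription factors, secreted, enzymes and others, in that order) were -0.04, 0.05, -0.26, 0.03 and -0.11 with median centring. They were -0.29, -0.37, -0.14, 0.04 and -0.85 without KO replicate 1, and -0.20, -0.55, 0.04, -0.17 and -1.26 without WT replicate 2. Without KO replicate 2 they were -0.97, -0.77, -0.99, -1.76 and -1.65, and without WT replicate 1 -0.94, -0.78, -1.42, -1.75 and -1.20. The cause was not tested. No gene passed the adjusted threshold under any setting, and without WT replicate 2 4515 genes had an unadjusted p below 0.05. The replicate block gave a median of -0.69 and 0 genes past the threshold. The same-numbered arrays share a slide row, and the labels give no other pairing (correlation of their deviations 0.595, with 2 pairs). Slide column is not balanced within the pairs, since it goes with genotype. In the CD24+ CD29-high cells 1 member was at least 2-fold apart with the processed signals and the authors' table (Emcn, -1.17) and with offset 10 (Tie1, which has only a bound there). Weak reference signal limits 12 of the 38 members.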
